A study of Homo sapiens with 45 samples.

Results

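The regions bound by CTCF were set against those bound by MBD3 in HEK293T cells, a human embryonic kidney line, that had been kept in the solvent DMSO for 72 h. Each antibody has 1 deposited peak list on build hg19, made from 3 pooled libraries of immunoprecipitated chromatin. A region is a distinct chromosome, start and end in a list, and its summit is the base that the peak caller gave as the point of highest signal. The CTCF list held 17440 regions and the MBD3 list 10137, so that 27577 of the 53743 regions in the 12 lists of the series are described.

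The series holds 45 libraries in 15 groups of 3, with antibodies against CTCF, MBD3, MBD2 or TET1 and with input DNA, in cells given 30 µM BPK25, 0.5 mM IAA or DMSO for 72 h. The comparison rests on the 3 CTCF libraries and the 3 MBD3 libraries from DMSO cells, and the labels name 1 set of 3 DMSO inputs that may have served as control for both lists. The culture protocol speaks of HEK293T cells and of edited lines derived from them, and the labels of the DMSO libraries name HEK293T without any edit. The title of the series concerns the NuRD complex and the chromatin at CTCF sites.

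CTCF is a zinc finger protein that binds a long DNA motif directly, and it is known for insulators and for the anchors of chromatin loops, where it stops the extrusion of loops by cohesin. MBD3 is a subunit of NuRD, a complex that joins a nucleosome remodelling ATPase to histone deacetylases. It carries a domain related to those of proteins that bind methylated CpG, but the mammalian form binds such DNA weakly. MBD2 takes the place of MBD3 in other NuRD complexes and does bind methylated CpG, and TET1 oxidises methylated cytosine.

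No test between the antibodies was possible, since each list gives 1 value over its pooled libraries. Intervals are 95% Wilson intervals for shares and binomial order-statistic intervals for medians, and both cover counting over regions only, not the spread between cultures. How deeply each library was sequenced cannot be read from a peak list and is unknown. The least −log10 q was 1.30 in the CTCF list and 1.30 in the MBD3 list, and the median was 11.1 in the CTCF list and 9.19 in the MBD3 list. Fold enrichment, the ratio of pileup to local background at the summit, had a median of 4.31 over CTCF regions and 3.84 over MBD3 regions; it is the authors' value and ranks regions within a list only. A pileup, the number of fragments over the summit, was recovered from the deposited values, and its median was 38 in the CTCF list and 38 in the MBD3 list. Which control the authors used for each list is not stated in the sources used, and a shared one was not tested.

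Most MBD3 regions lay on a CTCF region, while fewer than 50% of the CTCF regions lay on an MBD3 region. An overlap of 1 bp or more was found for 8099 CTCF regions, 46.4% (95% interval 45.7 to 47.2) of the list, and for 8108 MBD3 regions, 80.0% (79.2 to 80.8). The 46.4% and 80% of the whole lists are the shares against which the CTCF and MBD3 overlap of subsets below is read. The remaining 9341 CTCF regions and 2029 MBD3 regions had no partner. An overlap of lists made from many cells does not show that both proteins sat on the same DNA molecule. The lists differ in length, and with the CTCF list shortened to the MBD3 length by highest −log10 q the shares were 60.5% for CTCF and 60.6% for MBD3.

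The overlaps formed 8115 pairs, of which 8071 joined a region to a single partner. A CTCF region touched more than 1 MBD3 region in 16 cases, and an MBD3 region touched more than 1 CTCF region in 7 cases. Partners covered nearly the same bases. The MBD3 region lay wholly inside the CTCF region in 3578 pairs (44.1%), and the CTCF region lay wholly inside the MBD3 region in 768 pairs (9.46%). The median length shared was 221 bp, and 29 pairs (0.357%) shared less than 50% of the shorter region.

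Within the overlapping pairs the CTCF and MBD3 summits sat at almost the same base. The median distance between them was 11 bp (interval 11 to 12, n = 8115 pairs), with quartiles of 5 and 22 bp, while the CTCF regions were a median of 272 bp wide and the MBD3 regions 238 bp. The summits were the same base in 190 pairs (2.34%), within 10 bp in 47.1% (46.0 to 48.2) and within 50 bp in 93.3% (92.7 to 93.8). The MBD3 summit was thus far closer to the CTCF summit than the ends of either region were. There was next to no offset along the chromosome. The CTCF summit had the higher coordinate in 3852 pairs (47.5%) and the lower one in 4073 pairs (50.2%), and the median signed distance, CTCF minus MBD3, was -1 bp. The strand of the CTCF motif under each summit was not analysed here, since no genome of this build was used.

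**Figure D1:**
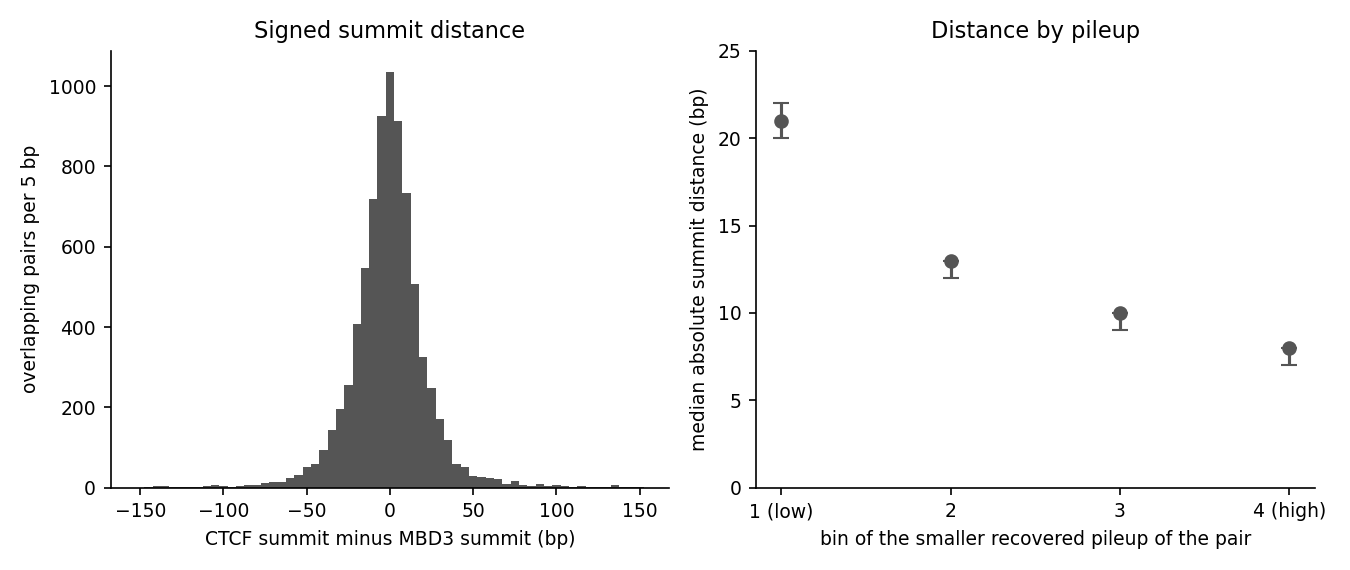
Left, the number of overlapping pairs per 5 bp of signed distance, CTCF summit minus MBD3 summit, with pairs beyond about 150 bp not drawn. Right, the median absolute distance with its interval in 4 equal bins of the smaller recovered pileup of the pair, which runs from 21 bp in the lowest bin to 8 bp in the highest.

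The distance was shortest at regions with many fragments. With the pairs ordered by the smaller of their pileups and cut into 4 equal bins, the bins had median distances of 21, 13, 10 and 8 bp from low to high. Ordered by CTCF fold they had 17, 13, 10 and 8 bp, and ordered by MBD3 fold 18, 13, 10 and 8 bp. The distance thus fell along the order of signal by each of these measures. Across levels of local background it did not follow fold. Pairs over 3 times the smallest background in both lists had a median of 8 bp (n = 1028). Their median folds were 3.86 for CTCF and 3.21 for MBD3. Pairs within that limit in both lists had 12 bp (n = 6871), with median folds of 4.94 for CTCF and 4.13 for MBD3. In the lowest bin by pileup 81.6% (79.8 to 83.2) of the pairs had summits within 50 bp, in the third bin 98.9% (98.3 to 99.2) and in the highest 96.7% (95.8 to 97.4). The precision of a called summit also depends on the number of fragments, and its part in these differences was not tested.

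Pairs that neither MBD2 nor TET1 shared had a median distance of 16 bp (14 to 18, n = 940). The median was 12 bp with MBD2 alone (n = 2848), 12 bp with TET1 alone (n = 296) and 10 bp (10 to 11, n = 4031) where both other antibodies had a region. The pairs without MBD2 and TET1 were also the ones with the fewest fragments, with a median pileup of 34.5 for CTCF and 32 for MBD3, against 51 for CTCF and 45 for MBD3 where all 4 antibodies had a region. The part of pileup in the longer distance was not tested.

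A distance as short as that between CTCF and MBD3 was seen between other antibodies of the series too. CTCF and MBD2 summits lay a median of 11 bp apart (n = 11768 pairs), CTCF and TET1 summits 14 bp (n = 5931), MBD3 and MBD2 summits 11 bp (n = 7691) and MBD3 and TET1 summits 13 bp (n = 4578). These sets share regions, and the differences between them were not tested. The median of the CTCF and MBD3 pairs thus lay at the short end of a narrow range.

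The summits lay more than 100 bp apart in 266 pairs (3.28%). Of these, 150 (56.4%, 50.4 to 62.2) held several summits in either region, against 286 (3.64%, 3.25 to 4.08) of the 7849 pairs with nearer summits. The far pairs were also the wider ones, where CTCF had a median of 419.5 bp and MBD3 of 349.5 bp, against 271 bp for CTCF and 237 bp for MBD3 in the near pairs. The remaining far pairs had a single summit in both regions. Over all pairs, those with several summits in either region had a median of 27.5 bp (21 to 36, n = 436), against 11 bp (n = 7679) for single summits. The farthest pair lay on chromosome 7, where a CTCF region of 2367 bp (26226369 to 26228735) held an MBD3 region of 269 bp (26226408 to 26226676) with summits 1764 bp apart. The next lay on chromosome X, where a CTCF region at 107960695 to 107962316 and an MBD3 region at 107960848 to 107962300 had summits 1385 bp apart.

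Regions without a partner were mostly far from any region of the other antibody. The nearest MBD3 summit lay a median of 69114 bp (66561 to 71697) from a CTCF summit without overlap, with quartiles of 24083 and 169406.5 bp. The nearest CTCF summit lay a median of 42295 bp (39363 to 46349) from an MBD3 summit without overlap, with quartiles of 13600 and 100221 bp. The shorter distance was measured into the longer list, and with the CTCF list shortened to the MBD3 length the medians were 64913 bp for CTCF and 72258 bp for MBD3. Of the CTCF regions without overlap, 18 lay on a sequence that held no MBD3 region.

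Few of these regions were near misses. Of the CTCF regions without overlap, 113 (1.21%, 1.01 to 1.46) had an MBD3 summit within 1 kb, 1272 (13.6%, 13.0 to 14.4) within 10 kb and 5615 (60.2%, 59.2 to 61.2) within 100 kb. Of the MBD3 regions without overlap, 51 (2.51%, 1.92 to 3.29) had a CTCF summit within 1 kb, 412 (20.3%, 18.6 to 22.1) within 10 kb and 1521 (74.96%, 73.0 to 76.8) within 100 kb. The smallest distance without overlap was 216 bp. From overlapping regions, the next region of the other list outside the pair was within 1 kb for 198 CTCF (2.45%) and 260 MBD3 regions (3.21%). It was within 10 kb for 17.0% of the overlapping CTCF regions and 25.4% of the overlapping MBD3 regions. Low shares at these distances were thus not particular to the regions without a partner.

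Over both kinds of region the distances fell into a near and a far group with little between. Regions were at least 195 bp wide for CTCF and 192 bp for MBD3, so that near summits mostly go with overlap. The part of region width in this split was not tested. A summit of the other list lay under 200 bp away for 7961 CTCF regions and for 7961 MBD3 regions. It lay at 1000 bp or more for 9213 CTCF regions and for 1984 MBD3 regions. At 200 bp or more but under 1000 bp were 248 CTCF regions (1.42%, 1.26 to 1.61) and 192 MBD3 regions (1.89%, 1.65 to 2.18).

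**Figure D2:**
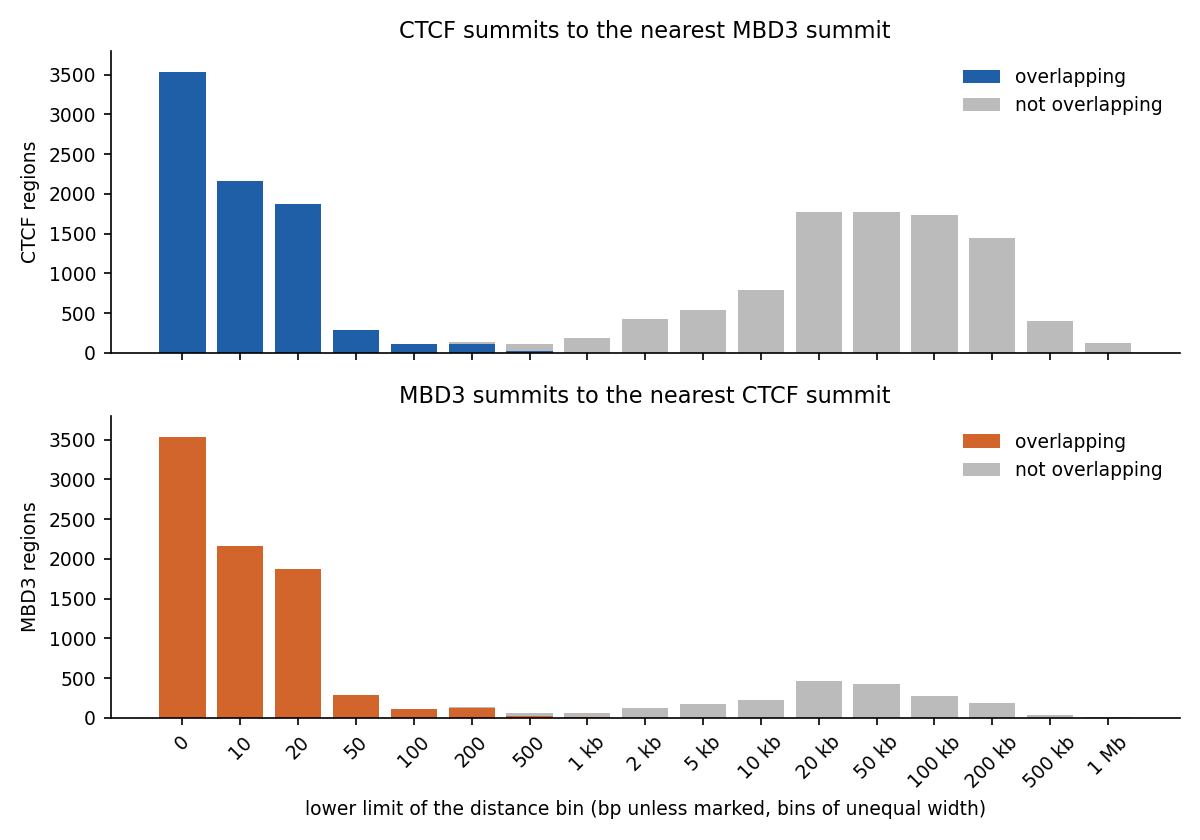
Number of CTCF regions (above) and MBD3 regions (below) by the distance of their summit to the nearest summit of the other list, in bins of unequal width with the lower limit given on the axis; coloured parts overlap a region of the other list and grey parts do not. The near bins hold most of the overlapping regions, the bins from 100 bp up to 2000 bp hold few regions, and the regions without overlap lie mostly beyond 10 kb.

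The distance to the other antibody can be set beside the spacing of each list. CTCF regions without overlap had the next CTCF summit a median of 37891.5 bp away, and overlapping CTCF regions had it 30791.5 bp away. MBD3 regions without overlap had the next MBD3 summit a median of 78145.5 bp away, and overlapping MBD3 regions had it 57886 bp away. In both lists the overlapping regions stood closer to others of their own list than the rest did. From an overlapping CTCF region the next MBD3 region outside the pair was a median of 58343 bp away, and from an overlapping MBD3 region the next CTCF region was 30803 bp away. Against these, the CTCF regions without overlap were farther from MBD3 (69114 bp), and the MBD3 regions without overlap were farther from CTCF (42295 bp), and these differences were not tested.

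Some regions stood out among those without a partner that passed the limits on significance and background given below. The CTCF region of highest fold with no MBD3 summit within 10 kb lay on chromosome 2 at 95539960 to 95540240, with a fold of 12.7, a pileup of 67 and the nearest MBD3 summit 357479 bp away, and MBD2 had a region there. The next lay on chromosome 3 at 194193042 to 194193395, with a fold of 11.8, a pileup of 73 and the nearest MBD3 summit 799193 bp away, and both MBD2 and TET1 had regions there. Neither site was therefore bare of the other antibodies. The MBD3 region of highest fold with no CTCF summit within 10 kb lay on chromosome 3 at 160638916 to 160639110, with a fold of 7.17, a pileup of 40 and the nearest CTCF summit 20862 bp away, and TET1 had a region there. The next lay on chromosome 4 at 91278364 to 91278586, with a fold of 7.15, a pileup of 43 and the nearest CTCF summit 42056 bp away, and MBD2 had a region there.

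The nearest neighbours without overlap that passed the same limits on significance and background lay on chromosome X. A CTCF region at 107963727 to 107963930 and an MBD3 region at 107963249 to 107963611 had summits 442 bp apart, with pileups of 24 for CTCF and 27 for MBD3. This stretch lies beside the wide regions with distant summits described above for that chromosome. The following pair lay on chromosome 5, with CTCF at 159866222 to 159866535 and MBD3 at 159865470 to 159865680, summits 769 bp apart and pileups of 63 for CTCF and 39 for MBD3.

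CTCF regions were a little wider than MBD3 regions. The median width was 252 bp for CTCF (quartiles 222 and 297, from 195 to 2367) and 235 bp for MBD3 (quartiles 210 and 277, from 192 to 2884). Regions over 500 bp made up 2.47% of the CTCF list (431) and 2.39% of the MBD3 list (242). Both lists thus hold narrow, single-site regions with few broad ones, and they covered 4.81 Mb for CTCF and 2.66 Mb for MBD3. The summit lay a median of 13.5 bp from the centre of a CTCF region and 13.5 bp from the centre of an MBD3 region.

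At the same sites the CTCF region was the wider of the pair in 5838 of 8115 pairs (71.9%, 71.0 to 72.9), and the MBD3 region in 2205. The median difference, CTCF minus MBD3, was 29 bp (27 to 30), with quartiles of -4 and 67 bp. The most significant regions were the widest in both lists. In 4 equal bins of −log10 q from low to high the median widths were 236, 236, 249 and 286 bp for CTCF, and 231, 224, 230 and 257 bp for MBD3. Among the 1348 pairs whose −log10 p lay within 10% of each other the median difference was 15 bp (12 to 18), with CTCF wider in 64.5% (61.9 to 67.0). The median difference was thus smaller in these pairs than over all pairs, and the part of significance in it was not tested. Widths of partners agreed only loosely, with a Spearman correlation over pairs of 0.41, against 0.724 for their folds.

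Overlapping regions were wider and stronger than the others in both lists. The median width was 272 bp for overlapping CTCF regions and 237 bp for the rest, and 238 bp for overlapping MBD3 regions and 223 bp for the rest. The median pileup was 45 for overlapping CTCF regions and 33 for the rest, and 41 for overlapping MBD3 regions and 28 for the rest. A wide region also meets another more readily, and the part of width in the overlap was not tested.

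**Figure D3:**
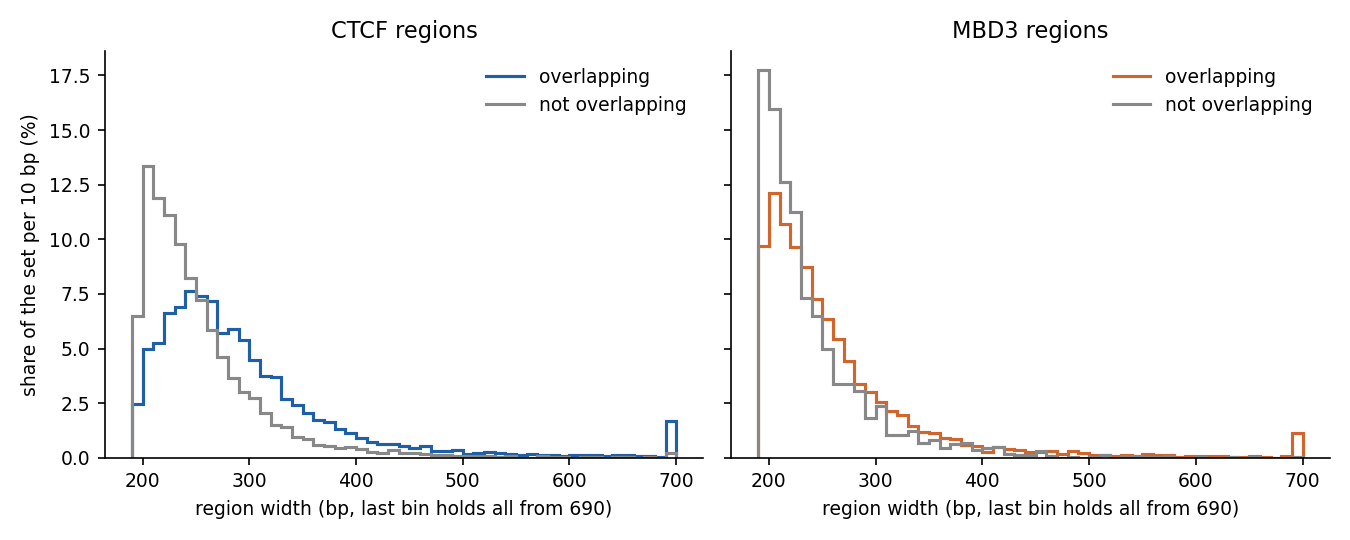
Share of regions per 10 bp of width for CTCF (left) and MBD3 (right), with overlapping regions in colour and the others in grey; the last bin holds all regions from 690 bp. In both lists the overlapping regions lie to the right of the others, with medians of 272 against 237 bp for CTCF and 238 against 223 bp for MBD3.

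The share of regions with a partner climbed with significance. In 10 equal bins of −log10 q from low to high, 15.1%, 25.7%, 28.3%, 36.2%, 40.3%, 44.7%, 51.7%, 58.8%, 72.4% and 91.3% of the CTCF regions overlapped an MBD3 region, against 46.4% of all. In the same bins of their own list, 42.0%, 59.0%, 72.5%, 78.9%, 81.4%, 85.6%, 91.4%, 93.0%, 96.9% and 99.2% of the MBD3 regions overlapped a CTCF region, against 80% of all. The CTCF sites of highest −log10 q therefore mostly had an MBD3 region, and the CTCF sites near the threshold mostly had none in the list. Ranked by fold instead, 80.2% of the 2000 highest CTCF regions overlapped an MBD3 region. Median pileups ran along the bins from 20 to 73 for CTCF and from 22 to 75 for MBD3. Whether partners near their own threshold were missed at the low end was not tested.

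MBD2 and TET1 followed the same division. MBD2 had a region at 84.7% (83.9 to 85.5) of the CTCF regions that overlapped MBD3 and at 52.3% (51.3 to 53.3) of those that did not. TET1 had one at 53.2% (52.2 to 54.3) of the CTCF regions that overlapped MBD3 and at 17.1% (16.4 to 17.9) of those that did not. The sites listed for both CTCF and MBD3 were thus also the sites at which the other antibodies most often had regions. Seen from the MBD3 list, MBD2 was at 84.7% (83.9 to 85.4) of the regions that overlapped CTCF and at 40.2% (38.1 to 42.4) of the others, and TET1 was at 53.1% (52.1 to 54.2) of the regions that overlapped CTCF and at 12.7% (11.3 to 14.2) of the others. Neither MBD2 nor TET1 was at 940 (11.6%) of the overlapping and 4083 (43.7%) of the other CTCF regions, nor at 944 (11.6%) of the overlapping and 1140 (56.2%) of the other MBD3 regions. Overlapping regions had more fragments, and the part of pileup in these shares was not tested.

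The ranks of CTCF and MBD3 at shared sites agreed well. Over the 8115 pairs the Spearman correlation was 0.724 for fold and 0.693 for −log10 p, and over the 8081 pairs with recovered values it was 0.821 for pileup. Partners share a position, and the local background in the denominator of the fold correlated at 0.977 between the lists. With the background taken off each pileup the correlation was 0.765. For pairs whose local background stayed within 3 times the smallest of each list the correlation of fold was 0.674 (n = 6871), and for pairs above that limit in both lists it was 0.893 (n = 1028). The agreement was close to that of CTCF with MBD2 (0.711, n = 11768), of CTCF with TET1 (0.698, n = 5931) and of MBD3 with MBD2 (0.711, n = 7691).

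Cutting each list into 4 equal bins by fold shows how far this goes. Of the 3084 pairs in the highest CTCF bin, 59.5% (57.7 to 61.2) were in the highest MBD3 bin and 2.14% (1.69 to 2.71) in the lowest. Of the 1260 pairs in the lowest CTCF bin, 64.9% (62.2 to 67.5) were in the lowest MBD3 bin and 1.51% (0.967 to 2.34) in the highest. A strong CTCF site with weak MBD3 was thus rare among the pairs, and so was the opposite. Regions without a partner are not counted in these shares. Of the 5000 CTCF regions of highest fold, 68.6% overlapped an MBD3 region of any rank, against 46.4% of all. Of the 2000 MBD3 regions of highest fold, 94.8% overlapped a CTCF region of any rank, against 80% of all.

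The tops of the lists matched less closely in order than in membership. Of the 1000 CTCF regions of highest fold, 51.8% (48.7 to 54.9) overlapped a region among the 1000 MBD3 regions of highest fold, and 85.9% (83.6 to 87.9) overlapped an MBD3 region of any rank. Of the 1000 MBD3 regions of highest fold, 97.3% (96.1 to 98.1) overlapped a CTCF region of any rank. The shares against any rank stand above the 46.4% and 80% of the whole lists. By −log10 p in place of fold, 64.2% (61.2 to 67.1) of the top 1000 CTCF regions overlapped a top 1000 MBD3 region, and 94.7% (93.1 to 95.9) overlapped any.

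**Figure D4:**
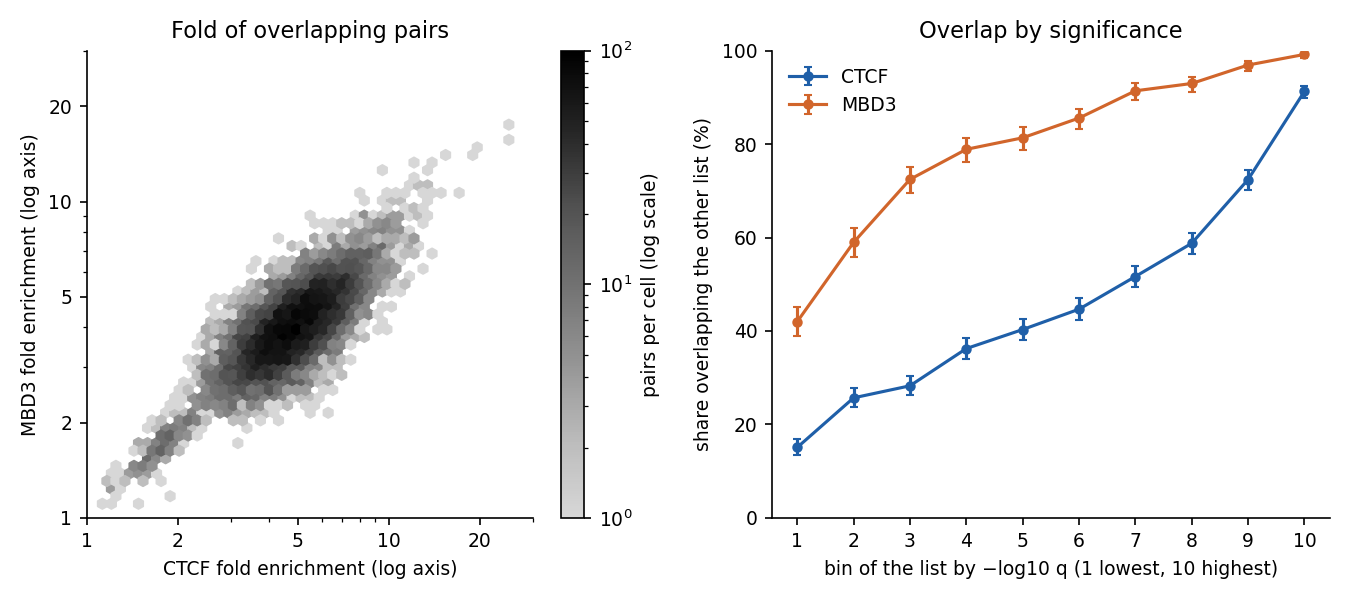
Left, the fold enrichment of the CTCF region (x) and of the MBD3 region (y) of the 8115 pairs, on log axes, shaded by the number of pairs. Right, the share of regions that overlap the other list, with 95% Wilson intervals, in 10 bins of −log10 q; it reaches 91.3% for CTCF and 99.2% for MBD3 in the highest bin.

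Among the pairs within the limits on significance and recovered background given below, the 3 of lowest mean rank by fold are described. They were chosen for their high rank in both lists. On chromosome 1, CTCF at 11134 to 11698 and MBD3 at 11132 to 11755 had folds of 19.4 for CTCF and 14.4 for MBD3, ranked 4 and 4 in their lists, with summits 13 bp apart. On chromosome 9, CTCF at 998543 to 999029 and MBD3 at 998547 to 999012 had folds of 15.4 for CTCF and 13.9 for MBD3, with summits 9 bp apart. On chromosome 17, CTCF at 43212638 to 43212959 and MBD3 at 43212658 to 43212959 had folds of 13.5 for CTCF and 13.4 for MBD3, with summits 1 bp apart and pileups of 151 for CTCF and 164 for MBD3. At each of these 3 sites MBD2 and TET1 had regions as well.

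A few pairs went against the common order. On chromosome 2 at 136555124 to 136555413 the CTCF fold of 6.97 ranked 1056 of 17440, while the MBD3 fold of 3.01 ranked 8090 of 10137, with pileups of 63 for CTCF and 36 for MBD3. On chromosome 5 at 176087820 to 176088157 the CTCF fold of 6.08 ranked 2241, while the MBD3 fold of 3.02 ranked 8063, with pileups of 70 for CTCF and 39 for MBD3. In both, MBD3 was weak beside a strong CTCF site. On chromosome 6 at 9540858 to 9541052 the CTCF fold of 3.66 ranked 12369, while the MBD3 fold of 6.31 ranked 452, with pileups of 23 for CTCF and 38 for MBD3, and neither MBD2 nor TET1 had a region there. On chromosome 11 at 61543886 to 61544202 the CTCF fold of 3.09 ranked 15012 and the MBD3 fold of 5.07 ranked 1694, yet the pileups were 40 for CTCF and 40 for MBD3. The summits of that pair lay 140 bp apart, and the local background was 2.82 times the smallest of the list at the CTCF summit and 1.50 times at the MBD3 summit.

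In fragments, CTCF stood slightly above MBD3 at shared sites. The pileup of CTCF over that of MBD3 had a median of 1.11 (quartiles 0.967 and 1.28, n = 8081), beside a ratio of 0.921 between the smallest backgrounds of the CTCF and MBD3 lists. The level of this ratio depends on the depth of the pooled libraries, so that its spread over sites is the quantity of interest. At pairs whose local background stayed within 3 times the smallest, the mean squared deviation of the pileups from 1 constant ratio was 0.906 times that of counting alone (n = 6871). Above that limit it was 2.88 times (n = 1028). The thresholds of both lists leave out pairs with a low value, which cuts this spread short, so that a value near or under 1 does not show a constant ratio. In 4 equal bins of the summed pileup of the low-background pairs the deviation was 0.785, 0.824, 0.948 and 1.02 times counting from low to high. In the same bins the median ratio of CTCF to MBD3 pileup was 1.08, 1.11, 1.11 and 1.15, and CTCF had the higher pileup in 60.2%, 64.8%, 68.6% and 76.2% of the pairs. The pileup of CTCF thus stood further above that of MBD3 at the stronger sites, and the part of the thresholds in this was not tested. At sites of low background the squared deviation for CTCF with MBD2 was 0.878 (n = 10220), for CTCF with TET1 1.01 (n = 5019) and for MBD3 with MBD2 0.877 (n = 6555).

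CTCF and MBD3 were dense on the same chromosomes. Over chromosomes 1 to 22 and X there were 5.68 CTCF regions and 3.30 MBD3 regions per Mb, taking the furthest region end in the 12 lists as the length of a chromosome. Chromosome 17 was the densest for both, with 11.5 CTCF and 7.22 MBD3 regions per Mb, and chromosome 19 followed with 10.7 CTCF and 6.48 MBD3. Chromosome 21 was the sparsest, with 3.18 CTCF and 1.68 MBD3 regions per Mb, below chromosome 18 with 3.41 CTCF and 1.81 MBD3. The density therefore spanned 3.62-fold for CTCF and 4.29-fold for MBD3, and the Spearman correlation of the 2 densities over the 23 chromosomes was 0.973. Since 80.0% of the MBD3 regions overlap a CTCF region, the 2 densities count many of the same sites. The densities of the regions without overlap were not compared. HEK293T is not diploid throughout, and the part of copy number in these densities was not tested. The lengths include unsequenced stretches.

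The ratio of CTCF to MBD3 regions differed modestly between chromosomes. It was 1.72 over all 23, lowest on chromosomes 13 (1.56, 1.42 to 1.71), 17 (1.59, 1.50 to 1.69) and 1 (1.65, 1.57 to 1.73), and highest on chromosomes 9 (1.92, 1.73 to 2.12), 3 (1.91, 1.77 to 2.06) and 21 (1.89, 1.57 to 2.28). These 95% intervals are on the log scale and allow for the sites common to both lists. The intervals of 18 of 23 ratios held 1.72. Chromosomes 13 and 17 lay below it, and chromosomes 3, 9 and 11 above it, chromosome 11 only just (1.86, 1.722 to 2.02). The intervals were not adjusted over the 23 chromosomes.

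**Figure D5:**
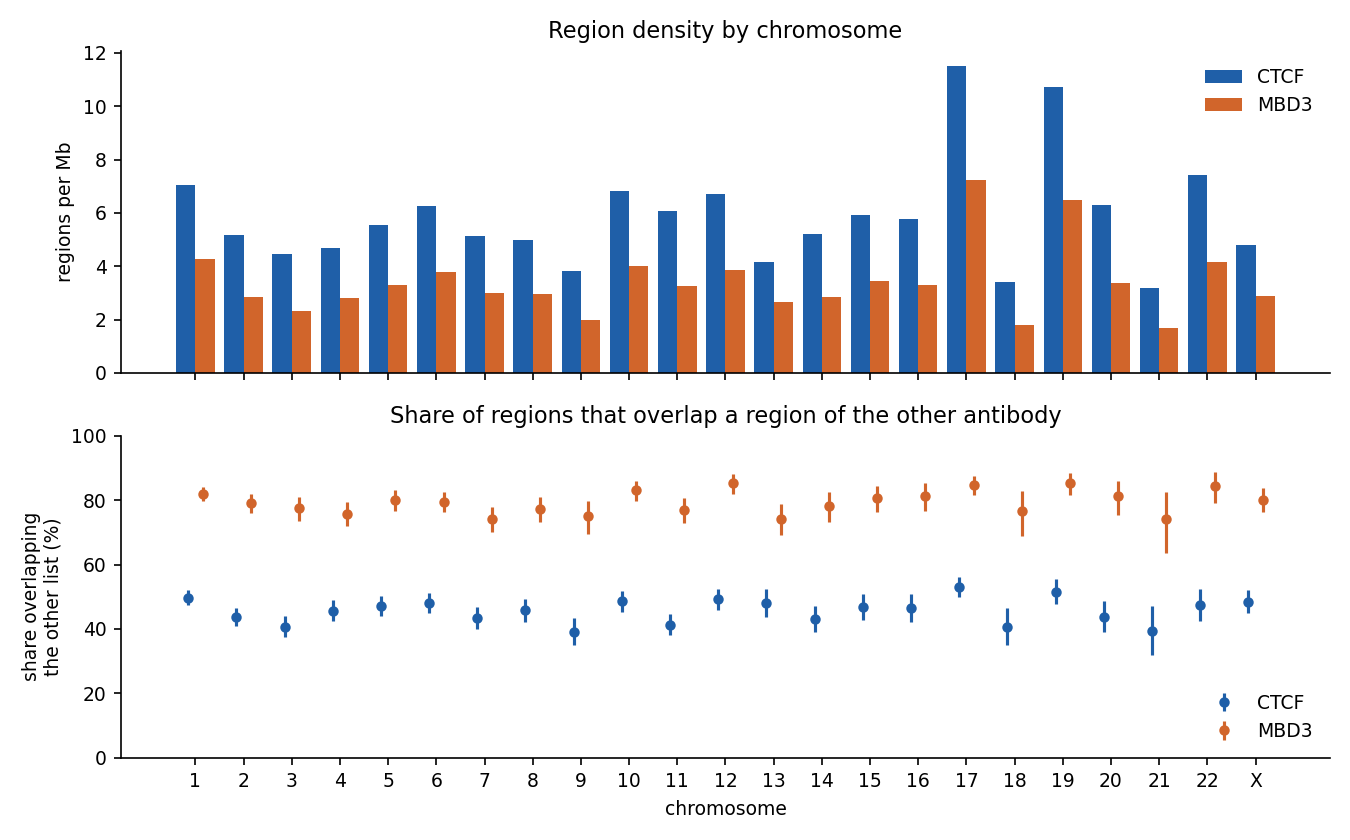
Above, CTCF and MBD3 regions per Mb on each chromosome. Below, the share of CTCF regions that overlap MBD3 and of MBD3 regions that overlap CTCF, with 95% Wilson intervals; the CTCF share lies between 39.1% and 53.0% and the MBD3 share between 74.1% and 85.4%.

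The share of CTCF regions with MBD3 was highest on chromosomes 17 (53.0%, 49.8 to 56.2) and 19 (51.5%, 47.6 to 55.4) and lowest on chromosomes 9 (39.1%, 35.1 to 43.3) and 21 (39.2%, 31.8 to 47.1). The share of MBD3 regions with CTCF was highest on chromosomes 19 (85.4%, 81.5 to 88.6) and 12 (85.3%, 82.0 to 88.1) and lowest on chromosomes 21 (74.1%, 63.6 to 82.4) and 7 (74.1%, 70.01 to 77.8). The interval held the share of the whole list on 17 of 23 chromosomes for CTCF and on 16 of 23 for MBD3. The local background differed between chromosomes too, and over the 23 its median at CTCF regions had a Spearman correlation of 0.776 with the CTCF share, 0.566 with CTCF density and -0.707 with the ratio of CTCF to MBD3 regions. Its part in these differences was not tested. The median summit distance lay between 8.5 and 14 bp on every chromosome.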

How the data were processed

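HEK293T cells were treated for 72 h and chromatin was immunoprecipitated in 3 libraries per antibody. The sources used here do not say whether these were separate cultures. The file names show that the authors called 1 list on replicates 1 to 3 together. The submitters' processing notes name MACS2 2.1.2, Bowtie2 2.3.4, deepTools 3.5.0, FastQC 0.11.7, bedtools 2.25.0 and SAMtools 1.9, with build hg19, and the caller's settings are not stated in the sources used. The deposited lists hold a fold ratio, the −log10 p-value, the −log10 q-value and a summit offset in bp for each peak.

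Sub-peaks with the same start and end were taken as 1 region with the summit of largest −log10 p. Regions shared at least 1 bp to overlap. The pileup was recovered by reading the fold as the pileup over the local background, each with 1 added, and the −log10 p as a Poisson upper tail, solved up to a −log10 p of 150 within 0.02%; 34 CTCF and 25 MBD3 regions had no solution. Local background was at least 4.35 fragments for CTCF and 4.72 for MBD3. Local background exceeded 3 times that value at 10.5% of CTCF and 12.4% of MBD3 regions.

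The regions named are on chromosomes 1 to 22 or X, have a −log10 q of 5 or more and, except the farthest pairs, a background of at most 3 times the smallest. They are the 3 pairs of lowest mean rank, the 2 pairs with the greatest difference in rank in each direction, the 2 farthest pairs, the 2 regions of highest fold with no summit of the other list within 10 kb, and the 2 nearest pairs without overlap. The members, rules and alternatives were chosen with earlier results of these data known. Sequences, motifs and genes at the regions were not analysed here, as no hg19 genome was used. Scripts were tested on simulated data. Python 3.11.15, numpy 2.4.6, pandas 2.3.3, SciPy 1.17.1 and matplotlib 3.10.9 were used.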

Additional observations from a re-analysis of the deposited data

How the results depend on the processing

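Of 43 alternative values for 9 results, 17 lay within the interval of the reported value and 26 lay outside it. A −log10 q of 5 or more left 14924 CTCF and 7954 MBD3 regions and gave shares of 45.5% for CTCF and 85.4% for MBD3, a summit distance of 10 bp, nearest distances of 90545 bp for CTCF and 51941 bp for MBD3, a CTCF width of 254 bp, a rank correlation of 0.701 and a ratio of regions of 1.88. With the CTCF list shortened to the MBD3 length the shares were 60.5% for CTCF and 60.6% for MBD3, the summit distance 10 bp, the nearest distances 64913 bp for CTCF and 72258 bp for MBD3, and the correlation 0.694. The order of the 2 nearest distances thus turned round with list length. With local background limited to 3 times the smallest, the shares were 44.0% for CTCF and 77.5% for MBD3, the nearest distances 79315.5 bp for CTCF and 48899 bp for MBD3, the widths 250 bp for CTCF and 233 bp for MBD3, the correlation 0.674 and the ratio of regions 1.76. Summits within 150 bp in place of overlap gave 45.4% for CTCF and 78.1% for MBD3. Ranked by −log10 p the correlation was 0.693, and by recovered pileup, an alternative chosen after seeing the data, 0.821. The motif alternatives were not run, as no hg19 genome was used. No paired analysis was possible because each list pools the 3 replicates and carries no replicate numbers, and for the same reason no replicate could be left out.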

Other observations

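After treatment, the DMSO regions still listed were mostly those listed for both CTCF and MBD3. Under BPK25 the CTCF list, of 375 regions, still met 195 of the 8099 CTCF regions with MBD3 (2.41%, 2.096 to 2.76) and 27 of the 9341 without (0.289%, 0.199 to 0.420). The MBD3 list under BPK25, of 374 regions, met 171 of the 8108 MBD3 regions with CTCF (2.11%, 1.82 to 2.45) and 2 of the 2029 without (0.0986%, 0.0270 to 0.359). Under IAA, whose CTCF list held 595 regions, CTCF was listed at 156 of the regions with MBD3 (1.93%, 1.65 to 2.249) and at 10 of those without (0.107%, 0.0582 to 0.197). MBD3 under IAA, with 95 regions, was listed at 75 of the regions with CTCF (0.925%, 0.739 to 1.16) and at 0 of the 2029 without, which allows up to 0.189%. The overlapping regions also had more fragments in DMSO, and more of them had a local background over 3 times the smallest of the list. This held for 13.5% of the overlapping CTCF regions against 7.79% of the others, and for 14.2% against 5.22% for MBD3. The parts of pileup and of background were not tested.

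Outside chromosomes 1 to 22 and X there were 188 CTCF regions and 113 MBD3 regions, and 100 of each overlapped (53.2% of CTCF, 88.5% of MBD3). A single sequence assigned to chromosome 9 without a position on it, gl000199, held 69 CTCF and 52 MBD3 regions, 50 of each overlapping. The median fold there was 1.89 for CTCF and 1.82 for MBD3, and the local background was 48.5 times the smallest of the list for CTCF and 53.4 times for MBD3.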
